A study of Mus musculus with 16 samples.

Results

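The pull-down of astrocyte ribosomes was measured mouse by mouse and compared between Crym KO and Control mice. For every gene the IP enrichment of a mouse was taken as log2 CPM in its immunoprecipitated RNA (IP) minus log2 CPM in the whole-lysate RNA of the same animal (Input), where CPM is the count of a gene scaled to a common library size. A value of 1 is therefore a doubling by the pull-down, and a value below 0 is a loss. The comparison held 4 Crym KO and 4 Control mice, which were all 8 mice of the series, and drew on all 16 libraries. All mice were adult CAG-Cas9-EGFP animals, in which the ubiquitous CAG promoter drives Cas9 and EGFP in every cell, and the labels give no age. Crym KO mice received, in the central striatum of both sides, viruses carrying guide RNAs against Crym under the U6 promoter. In Control mice, which the labels call WT, the guide RNA was directed against EGFP. Both guide viruses also carried mCherry under GfaABC1D, an astrocyte promoter, and both genotypes received a further virus with the HA-tagged ribosomal protein Rpl22 under the same promoter. The knockout was thus confined to cells that the virus reached, neither Cas9 nor the U6 promoter was limited to astrocytes, and the dissected striatum also held tissue that the virus may not have reached.

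The product of Crym is μ-crystallin, which holds thyroid hormone in the cytosol and is also known as ketimine reductase. In the mouse striatum it marks a subset of astrocytes. In the RiboTag method, tagged Rpl22 is built into the ribosomes of the targeted cells, and an antibody against the tag then recovers these ribosomes with the RNA they are translating. RNA on the ribosomes of targeted cells is meant to gain in IP over RNA of the nucleus, of mitochondria and of cells without the tag.

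Library totals were 39421209 to 62596661 counts. Astrocyte markers were enriched in every mouse. Aldh1l1, a folate enzyme that marks astrocytes, had an IP enrichment of 2.37, 2.34, 2.11 and 2.45 in the 4 Crym KO mice, against 2.28, 1.82, 2.20 and 2.20 in the 4 Control mice. The enrichment was correlated between mice over the 16334 genes with at least 1 CPM in the highest group mean. The r was 0.925 to 0.956 within Crym KO, 0.931 to 0.952 within Control and 0.901 to 0.957 between genotypes. By sex-linked counts both genotypes held females (mice 1 and 2) and males (mice 3 and 4) in equal number. A pair of mice stood apart. Over the same 16334 genes, Control mouse 2 had the shallowest pull-down, with a slope of 0.879 on the mean of the other mice. The remaining 7 mice had slopes of 0.964 to 1.07. In Crym KO mouse 3, deviations of the IP library from its group mean correlated with those of its own Input library at r = 0.149 and with those of Crym KO Input 4 at r = 0.291, whereas each of the other 7 IP libraries correlated best with its own Input (0.333 to 0.602). The labels do not settle whether both libraries labelled Crym KO 3 came from 1 animal, and every enrichment value of that mouse rests on those labels. For several lists, the median without 1 mouse is given beside the list.

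The targeted gene was examined first. Crym (ENSMUSG00000030905; GRCm38, chromosome 7, 120186380 to 120202111, minus strand) had an IP enrichment of 0.39, 0.69, 0.18 and 0.88 in Crym KO mice, against 2.07, 1.27, 1.55 and 1.98 in Control mice. All 4 Crym KO values lay below all 4 Control values, so that a gene enriched more than 2-fold in each Control mouse was enriched less than 2-fold in each Crym KO mouse. The difference (Crym KO minus Control) was -1.18 on the log2 scale (SE 0.18, 95% interval -1.59 to -0.78). Its p was 4.24e-05 in limma and 0.499 after adjustment over all 20645 genes tested, and the exact two-sided permutation p was 0.0286, the smallest that 4 against 4 mice can give. The difference came mostly from the IP libraries, at -1.52, beside -0.34 in Input. In IP, Crym stood at 68.6, 66.0, 47.9 and 76.0 CPM in Crym KO mice and at 222, 125, 189 and 213 CPM in Control mice. In Input it stood at 52.5, 41.0, 42.4 and 41.4 CPM in Crym KO mice and at 52.9, 51.8, 64.6 and 54.1 CPM in Control mice. The Input ranges overlapped at the edge, whereas the IP ranges were far apart, and Crym RNA remained in every Crym KO library. In such bulk samples, fewer Crym-expressing cells and less Crym RNA per cell cannot be told apart.

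The call on Crym depended on the model. Leaving out any 1 mouse kept its difference between -1.33 and -1.07 with adjusted p-values of 0.162 to 1.00, and without Crym KO mouse 3 it was -1.07. It was -1.13 in mice 1 and 2 alone and -1.24 in mice 3 and 4 alone. DESeq2 with a term per mouse gave -1.19 with an adjusted p of 4.2e-07. When the median enrichment of the astrocyte markers in each mouse was added as a covariate in limma, Crym was the only gene to pass, at -1.55 with an adjusted p of 3.61e-05.

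Abca14, which encodes a transporter of the ABC family, is the next gene beyond the start of Crym in the annotation, on the opposite strand (chromosome 7, 120203961 to 120325352). Its IP libraries held 79, 92, 82 and 65 counts in Crym KO mice, against 0, 1, 0 and 1 counts in Control mice. Its Input libraries held 16, 15, 46 and 17 counts in Crym KO mice, against 0, 0, 3 and 0 counts in Control mice. Abca14 was thus counted in every Crym KO library and was at or near 0 in every Control library. Within Crym KO mice the pooled IP level was 3.00 times that in Input (95% interval 2.37 to 3.81, counting error only). Per mouse the log2 enrichment was 2.20, 2.42, 0.57 and 1.40, a spread between mice that this interval leaves out. The lowest value was that of Crym KO mouse 3, whose libraries may not come from the same animal. An enrichment in Control mice could not be interpreted at counts this low, and Abca14 therefore gives no comparison of enrichment.

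**Figure D1:**
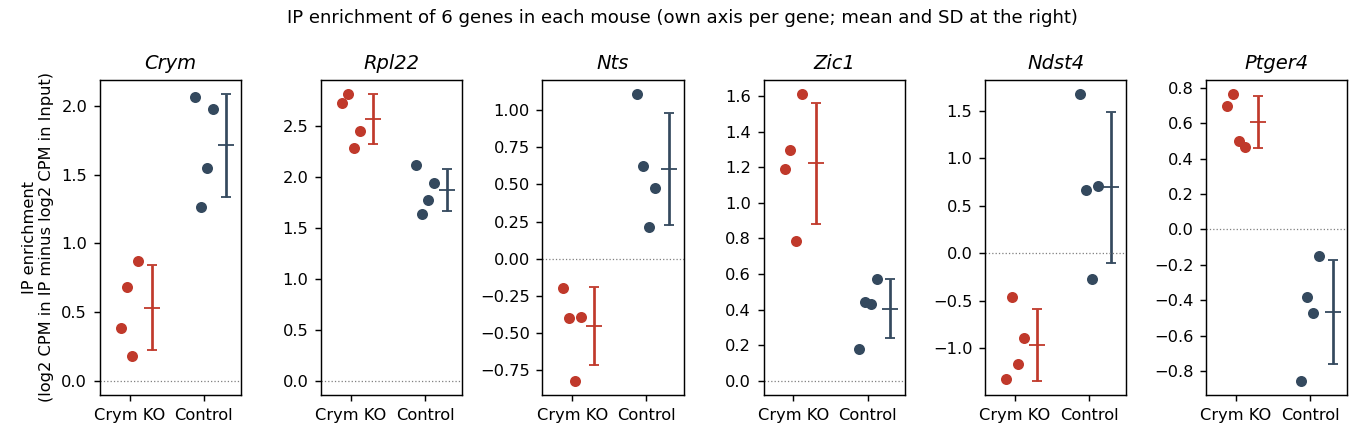
IP enrichment (log2 CPM in IP minus log2 CPM in Input) of 6 genes in each of 4 Crym KO and 4 Control mice (points, own vertical axis per gene), with the mean and SD at the right of each group. Crym KO mice lie below all Control mice for Crym, Nts and Ndst4 and above all Control mice for Rpl22, Zic1 and Ptger4.

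No gene passed an adjusted p of 0.05 in limma (0 of 20645, or 0%), and the lowest adjusted p was 0.499. With no adjustment, 953 genes had a p under 0.05, of which 482 (2.33%) had a higher and 471 (2.28%) a lower IP enrichment in Crym KO mice. The edgeR quasi-likelihood test and limma-voom, each with a term per mouse, also called 0 genes, whereas DESeq2 with a term per mouse called 11 (5 higher and 6 lower), among them Rpl22, Zic1, Plcb4, Aifm3 and Amotl1 as higher and Crym, Nts, Htr2c, Lmo7 and Nrp2 as lower. All 4 Crym KO mice lay above all 4 Control mice for 314 genes (1.52%) and below them for 285 genes (1.38%). These mice were separate animals, and the p-values measure the spread between them. Among the 16334 genes with at least 1 CPM in the highest group mean, the median standard error of the difference was 0.097 and the median half-width of its 95% interval was 0.213. That interval lay within -0.5 to 0.5 for 72.8% of these genes and within -1 to 1 for 93.2%, so that for most genes a difference of more than 2-fold in either direction lay outside the interval, while a small one could not be told from 0.

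**Figure D2:**
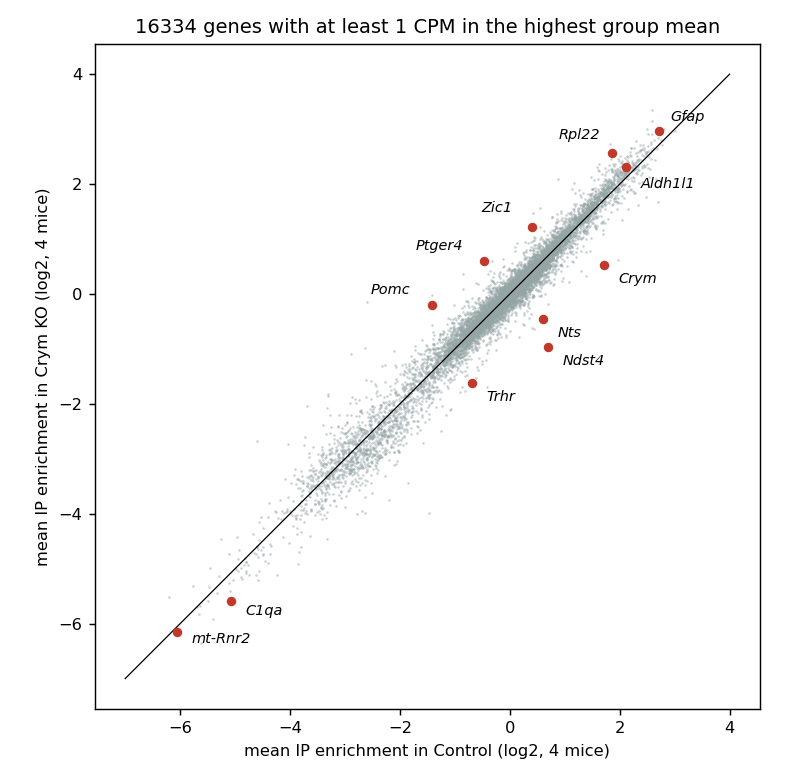
Mean IP enrichment in Crym KO mice (vertical, log2) against that in Control mice (horizontal, log2) for the 16334 genes with at least 1 CPM in the highest group mean; the line marks equal values and named genes are in red. The cloud runs from microglial and mitochondrial RNA near -6 to Gfap near 3, and Crym lies below the line at 0.53 in Crym KO and 1.72 in Control mice.

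Rpl22 itself, the ribosomal protein that carries the tag, had the fifth smallest p among genes with at least 1 CPM. Its IP enrichment was 2.72, 2.81, 2.28 and 2.45 in Crym KO mice, against 2.12, 1.64, 1.78 and 1.94 in Control mice, with no overlap. The difference was 0.70 (SE 0.12, 95% interval 0.43 to 0.97, adjusted p = 0.499 in limma). Rpl22 (chromosome 4, 152325742 to 152334071, plus strand) stood at 714, 704, 598 and 496 CPM in Crym KO IP libraries and at 350, 342, 281 and 336 CPM in Control IP libraries. In Input it stood at 108, 100, 123 and 90.5 CPM in Crym KO mice and at 80.8, 110, 81.9 and 87.5 CPM in Control mice, where the ranges overlapped. Reads of the viral transgene and of the mouse's own Rpl22 cannot be told apart in these counts. The tagged transgene is itself made in the targeted cells, and its dose per mouse was not measured.

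The genome also holds processed copies of Rpl22 that could share its reads, and 4 of them passed the expression filter. They are shown over the same 30 coding bases (166 to 195 of the coding sequence), with capitals at bases that differ from Rpl22. The differences set how far reads can be assigned to 1 copy. This stretch was chosen because its differences from Rpl22, summed over the 4 copies, were the most of any gap-free stretch of that length. It therefore overstates how far the copies differ over the whole coding sequence. Sequences are from the GENCODE M21 transcripts of GRCm38, 5′ to 3′.
Rpl22: ctcggcggaggagtcgtgaccatcgaacgc
Rpl22-ps1: ctcggcggaggagtTgtgaccaCcgaacgG
Gm13196: ctcggcggaggagtTgtgaccatcgaacAG
Gm9457: ctcggAggaggagtTgtgaccatTgaGcAG
Gm12005: ctTggcggaggagtTgtgaccatcgaacAG
Over the bases that could be aligned with the coding sequence of 384 bases, Rpl22-ps1 (chromosome X) was 96.0% identical to Rpl22 (362 of 377), Gm13196 (chromosome 2) 97.0% (350 of 361), Gm9457 (chromosome 8) 93.5% (345 of 369) and Gm12005 (chromosome 11) 95.8% (363 of 379). Of 316 windows of 69 bases, the length of a read, 24 (7.59%) occurred exactly in Rpl22-ps1, 0 in Gm13196, 16 (5.06%) in Gm9457 and 5 (1.58%) in Gm12005, and 271 (85.8%) occurred in none of the copies. Counts of Rpl22-ps1, Gm9457 and Gm12005 are uncertain for this reason, whereas Gm13196 shared no exact window. Reads placed with mismatches were not examined, so the counts of Gm13196 are not thereby certain. The IP enrichment of Rpl22-ps1 was 3.01, 3.41, 2.62 and 2.98 in Crym KO mice, against 2.78, 2.08, 2.45 and 2.67 in Control mice. The difference for Rpl22-ps1 was 0.51 (SE 0.17) and its groups overlapped. The other copies had differences of 0.27 (Gm13196), 0.55 (Gm9457) and 0.41 (Gm12005), with unadjusted p-values of 0.149 to 0.22 in limma, and that of Gm9457 was -0.08 in mice 3 and 4 alone. Across all 5 sequences, the median enrichment per mouse was 3.01, 3.08, 2.45 and 2.89 in Crym KO mice and 2.52, 2.08, 2.45 and 2.46 in Control mice. The list of 80 other cytosolic ribosomal proteins had medians below 0 in all mice, at -0.78 to -0.59 in Crym KO mice and -0.82 to -0.58 in Control mice.

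Of the genes with at least 1 CPM, the 10 positive and 10 negative differences with the smallest p were Crym, Rpl22 and 18 others. None of the 20 overlapped between genotypes, which their choice by the smallest p favours. Of all genes, 1.52% lay higher and 1.38% lower without overlap. The adjusted p-values of the 20 in limma were 0.499 to 0.832. Since each enrichment is a ratio, the difference was split into an IP part and an Input part. The Input difference was larger than the IP difference in 10 of the 20, and the parts had opposite signs in 13. Among the 748 genes at this level with an unadjusted p under 0.05, the Input part was larger in 361 (48.3%, against 49.4% of all 16334 genes) and the signs were opposite in 536 (71.7%, against 38.3% of all). A gene that differs in the ratio tends by construction to differ in opposite directions in its parts, so these shares are a description only.

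Described by their known roles, 3 of the 20 are neuropeptide precursors or a receptor of such a peptide (Nts, Pomc and Trhr). Neurotensin (Nts) had an IP enrichment of -0.20, -0.39, -0.82 and -0.39 in Crym KO mice, against 1.11, 0.62, 0.22 and 0.48 in Control mice, so that it lay below 0 in every Crym KO mouse and above 0 in every Control mouse. Its difference was -1.06 (SE 0.19, 95% interval -1.47 to -0.65), of which -1.11 was in IP and -0.05 in Input. Nts stood at 4.81 to 5.71 CPM in Crym KO IP libraries, against 9.22 to 12.9 CPM in Control IP libraries. Trhr, the receptor of thyrotropin-releasing hormone, was more depleted in Crym KO mice (-1.62, -1.49, -1.82 and -1.56) than in Control mice (-0.76, -0.64, -1.15 and -0.23), with a difference of -0.93 (SE 0.20) that was also almost wholly in IP (-0.90, beside 0.03 in Input). Pomc, the precursor of melanocortins and β-endorphin, had a difference of 1.22 (SE 0.26) at a low level, with means of 0.57 CPM in Crym KO IP and 0.44 CPM in Control IP. For Pomc the Input part was the larger, at -0.69, beside 0.53 in IP.

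Receptors and their signalling partners followed. Htr2c, a serotonin receptor, had an IP enrichment of -0.19, -0.16, -0.26 and -0.15 in Crym KO mice, against 0.35, 0.32, 0.02 and 0.23 in Control mice. The sign was thus opposite in every mouse, although Control mouse 3 lay only at 0.02. The difference of -0.42 (SE 0.07) for Htr2c was composed of -0.15 in IP and 0.27 in Input. Ptger4, a prostaglandin E2 receptor, had values of 0.70, 0.77, 0.50 and 0.47 in Crym KO mice, against -0.85, -0.38, -0.47 and -0.15 in Control mice. Its signs were opposite as well, at a low level of 1.60 CPM in Crym KO IP and 1.22 CPM in Control IP. Nrp2, a semaphorin receptor of growing axons, was depleted in all 8 mice, with a mean of -1.20 ± 0.29 in Crym KO and -0.44 ± 0.34 in Control mice (SD, n = 4 each). Tmem35a, a chaperone of nicotinic acetylcholine receptors, differed by -0.27 (SE 0.06) and Plcb4, a phospholipase C that acts below G-protein-coupled receptors, by 0.32 (SE 0.06), of which for Plcb4 the larger part was in Input (-0.50, beside -0.17 in IP).

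Transcription factors and developmental regulators included Zic1, a zinc-finger factor of the developing forebrain and cerebellum. Zic1 had an IP enrichment of 1.19, 1.30, 0.79 and 1.61 in Crym KO mice, against 0.18, 0.45, 0.43 and 0.57 in Control mice, a difference of 0.82 (SE 0.15). This came from Input, where the difference of Zic1 was -1.06 (13.2 CPM in Crym KO and 28.1 CPM in Control Input on average), while in IP it was -0.24. Nfix, a nuclear factor I protein of glial differentiation, differed by 0.31 (SE 0.06). Axin2, a feedback inhibitor of Wnt signalling, had 0.00, 0.09, 0.14 and 0.09 in Crym KO mice, against -0.27, -0.12, -0.23 and -0.17 in Control mice. The difference for Axin2 was 0.28 (SE 0.06) and lay wholly in IP (0.28, beside -0.00 in Input).

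Other genes of the 20 had roles in metabolism, matrix and the cytoskeleton. Ndst4, an enzyme that sulfates heparan sulfate, had the widest spread, with -1.32, -0.46, -1.17 and -0.89 in Crym KO mice, against 1.68, 0.67, -0.27 and 0.71 in Control mice. Its difference of -1.66 (SE 0.33) was mostly an Input difference (1.27, beside -0.39 in IP). Control mouse 3 lay closest to the Crym KO mice in Ndst4. Aifm3, a mitochondrial oxidoreductase, differed by 0.44 (SE 0.09), Amotl1, a cell-junction protein, by 0.45 (SE 0.10) and Asap2, a GTPase-activating protein of Arf proteins, by 0.29 (SE 0.06). Lmo7, a LIM-domain protein, differed by -0.30 (SE 0.06) and the long noncoding RNA Gm26917 by -0.24 (SE 0.06).

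**Figure D3:**
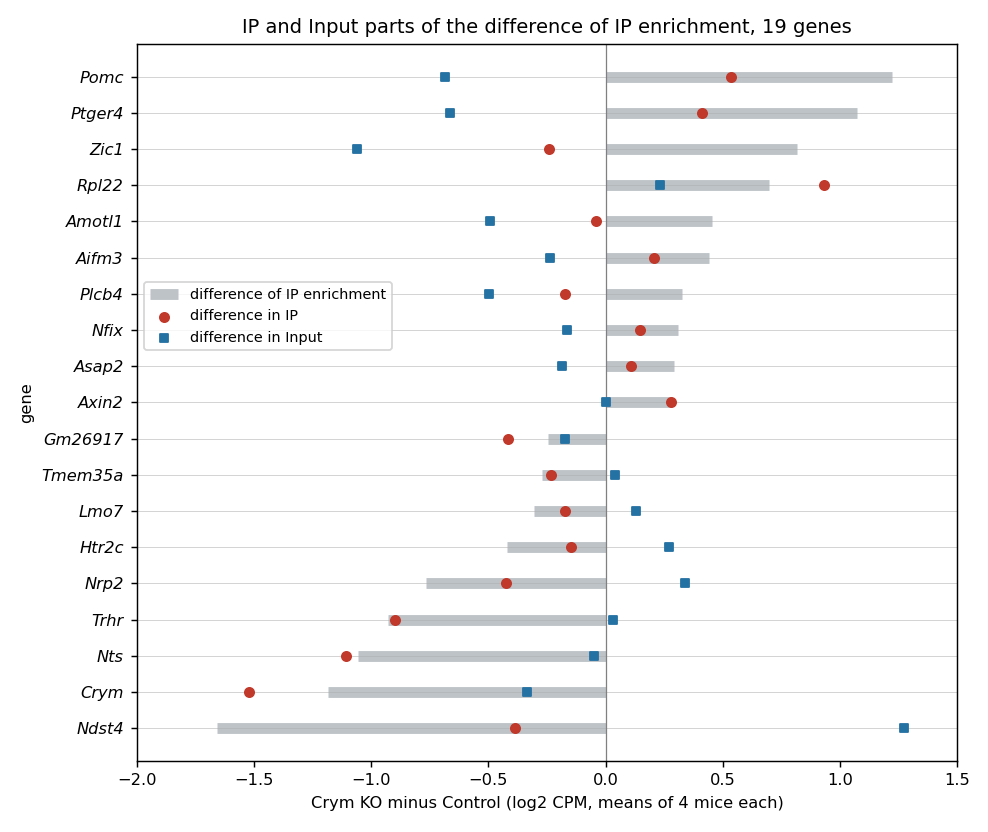
Differences between Crym KO and Control (log2 CPM, means of 4 mice each) for 19 of the 20 genes with the smallest p by direction, as the difference of IP enrichment (grey bars), the difference in IP (red circles) and the difference in Input (blue squares). For Crym (-1.52 in IP, -0.34 in Input) and Nts the IP part dominates, whereas for Zic1 (-0.24 in IP, -1.06 in Input) and Ndst4 the Input part does.

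A further set of genes was named from earlier results of these data. Sgk1, a kinase induced by glucocorticoids, had an IP enrichment of 0.22, 0.40, 0.04 and 0.13 in Crym KO mice, against 0.93, 0.70, 0.61 and 0.22 in Control mice. Its level was lower in both fractions of Crym KO mice, by -1.22 in IP and -0.80 in Input, so that the enrichment of Sgk1 differed by -0.42 (SE 0.13) with overlap at the lowest Control mouse. Senp7, a SUMO protease, had a difference of -0.25 (SE 0.06) without overlap. Ddit4, an inhibitor of mTOR signalling, had a difference of 0.07 (SE 0.08) with overlap.

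The 20 astrocyte markers were enriched in both genotypes (20 of 20 called in each). Of all genes, 7.76% were called enriched in Crym KO and 7.18% in Control mice. The median enrichment of the list was 1.98, 2.10, 1.89 and 2.20 in Crym KO mice, against 1.98, 1.55, 1.89 and 1.97 in Control mice. The difference was positive for 20 of 20 markers with a median of 0.17, beside 51.7% positive and a median of 0.01 over all genes tested. At an unadjusted p under 0.05, 3 of the 20 were higher (2.33% of all genes). For 1 (Gjb6) the mice did not overlap (1.52% of all genes lay higher without overlap). Gjb6, the gap-junction protein connexin 30, had 1.80, 1.85, 1.89 and 1.95 in Crym KO mice and 1.72, 1.33, 1.53 and 1.61 in Control mice. Slc7a10 and Fgfr3, an amino acid exchanger and a growth factor receptor, each had a difference of 0.26. Slc1a2 and Slc1a3, the glutamate transporters, had differences of 0.17 and 0.08, Aqp4, the water channel, 0.08 and Gfap, an intermediate filament, 0.23. Control mouse 2 was the lowest of all 8 mice for this list, and without it the median difference was 0.07. With the list's own median per mouse as a covariate it was -0.02, as that fit removes it by construction. Of the 1513 genes with a mean enrichment above 1, 1090 (72.0%) had a positive difference (median 0.09, 76 higher and 6 lower at an unadjusted p under 0.05). The slopes of the mice overlapped between genotypes, at 0.966 to 1.07 in Crym KO and 0.879 to 1.03 in Control mice, and the part of the depth of the pull-down in these differences was not tested.

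Neuronal markers divided by type. Medium spiny neurons, the projection neurons of the striatum, had list medians of 0.54, 0.54, 0.33 and 0.68 in Crym KO mice, against 0.50, 0.67, 0.57 and 0.81 in Control mice. Of the 14 genes, 13 had a negative difference (median -0.12). At an unadjusted p under 0.05, 1 was lower (2.28% of all genes), namely Penk, the enkephalin precursor, at -0.29 (SE 0.10). Without Crym KO mouse 3 the median difference was -0.06 and without Control mouse 4 it was -0.08. The levels of these genes differed in both fractions, with a median difference of 0.21 in Input and 0.09 in IP. The dopamine receptors Drd1 and Drd2 had differences of -0.11 and -0.07. Markers of striatal interneurons were also enriched. In each genotype 9 of 10 were called (7.76% of all genes in Crym KO and 7.18% in Control mice). The enzyme Chat of cholinergic neurons had 2.28, 2.73, 2.05 and 2.88 in Crym KO mice, against 2.73, 1.96, 2.43 and 2.98 in Control mice. Pan-neuronal genes lay near 0 (median difference 0.00). Markers of cortical glutamatergic neurons were depleted and spread the widest between mice of the 14 marker lists, with list medians of -1.85 to -0.35 in Crym KO mice and -2.18 to -0.81 in Control mice. In these, 7 of 8 differences were positive (median 0.30) and none had an unadjusted p under 0.05. The amount of overlying cortex in a dissection was not recorded in the labels, and its part in these values was not tested.

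Of the other glia, oligodendrocyte markers had a negative difference in 14 of 14 genes, with a median of -0.36. Their list medians were 0.01, 0.39, -0.57 and 0.00 in Crym KO mice, against 0.63, 0.37, 0.35 and -0.12 in Control mice, and 1 gene had an unadjusted p under 0.05, Mobp, a myelin protein, at -0.41 (SE 0.17). The groups overlapped, and without Crym KO mouse 3 the median difference was -0.18. The Input levels of these genes differed little (0.03), so that the difference was mostly in IP (-0.33). Microglial markers were depleted in both genotypes, 15 of 15 in each (19.6% of all genes in Crym KO and 19.9% in Control mice). Their list medians were -5.20 to -4.67 in Crym KO mice and -4.90 to -4.67 in Control mice. There, 11 of 15 differences were negative (median -0.15, but -0.27 without Control mouse 4 and -0.26 without Crym KO mouse 2). At an unadjusted p under 0.05, 5 were lower. Among them were Csf1r, the receptor that maintains microglia, at -0.32 (SE 0.09, no overlap) and the complement gene C1qa at -0.51 (SE 0.16). Of all genes, 2.28% were lower at this p and 1.38% lay lower without overlap. Of the 4088 genes with a mean enrichment below -1, 177 were lower and 78 higher at this p. In the IP libraries these 15 genes summed to 45.5 to 54.6 CPM in Crym KO mice and 47.4 to 57.7 CPM in Control mice. A difference at this depth in IP rests on few reads.

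Vascular and ventricular markers closed the check. Endothelial list medians were -3.94, -3.53, -3.48 and -3.69 in Crym KO mice, against -3.49, -3.18, -3.21 and -3.30 in Control mice. The median difference was -0.23 (8 of 12 negative) and 3 genes were lower at an unadjusted p under 0.05 (2.28% of all genes). They were Abcb1a, the drug efflux pump of the blood-brain barrier, at -0.68 (SE 0.16), the angiopoietin receptor Tek at -0.52 (SE 0.15) and Itm2a at -0.35 (SE 0.12). For Abcb1a and Tek the mice did not overlap (1.38% of all genes lay lower without overlap). Without Control mouse 2 the endothelial median was -0.12. Of 9 mural markers, 5 had a positive and 4 a negative difference (median 0.12, from -0.45 to 0.42). At an unadjusted p under 0.05, 2 were higher (2.33% of all genes), Vtn at 0.34 (SE 0.08) and Kcnj8 at 0.42 (SE 0.18). Both were without overlap (1.52% of all genes lay higher without overlap). Markers of ependymal cells, which line the ventricles, were enriched in all mice. In each genotype 8 of 8 were called (7.76% of all genes in Crym KO and 7.18% in Control mice). Their list medians were 2.29, 2.30, 1.24 and 2.45 in Crym KO mice, against 2.66, 1.99, 1.93 and 1.89 in Control mice. The ependymal median difference of -0.07 turned to 0.18 without Crym KO mouse 3 and also without Control mouse 1. Of 7 leptomeningeal markers, 4 had a positive and 3 a negative difference (median 0.03), and at an unadjusted p under 0.05 Igf2, a growth factor made in the meninges, was lower by -0.61 (SE 0.17, no overlap) and Ogn, a matrix proteoglycan, was higher by 0.44 (SE 0.19).

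**Figure D4:**
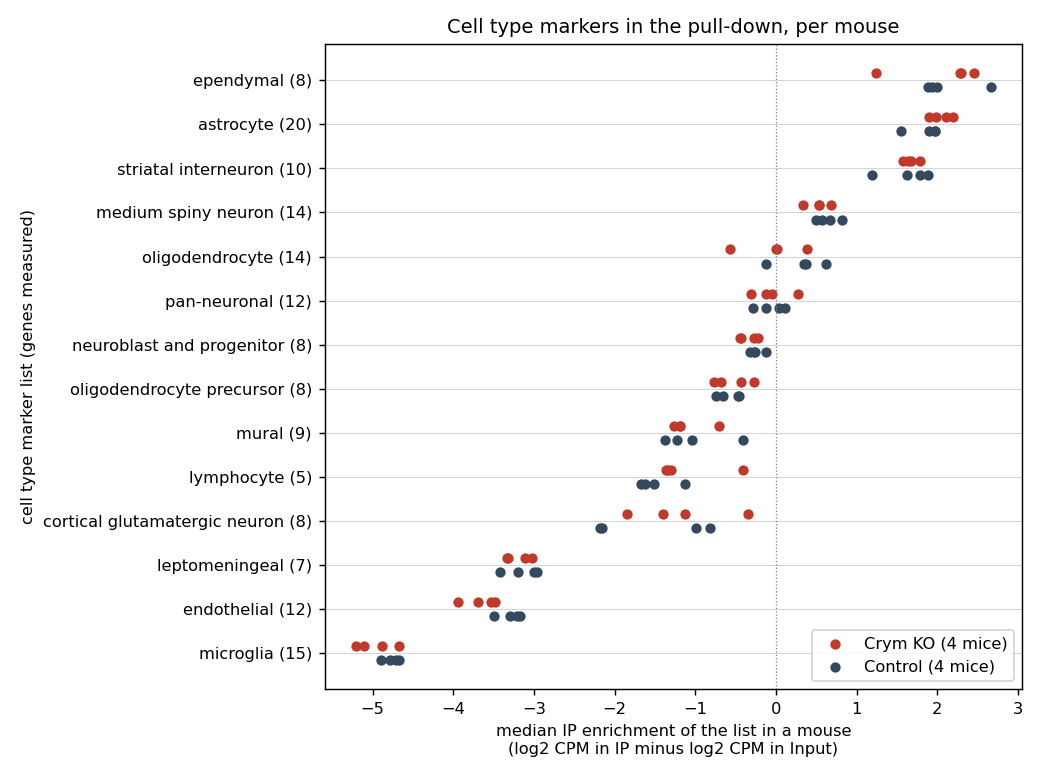
Median IP enrichment (horizontal, log2) of 14 cell type marker lists in each of 4 Crym KO (red, upper row) and 4 Control mice (dark, lower row), with the number of genes measured beside each name. Ependymal, astrocyte and interneuron lists lie highest and microglial genes lowest, between -5.20 and -4.67, and the genotypes overlap in all 14 lists.

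Lists of astrocyte function were described in the same way. Of 16 transcription factors of astrocytes, 14 had a positive difference (median 0.14), 5 were higher at an unadjusted p under 0.05 (2.33% of all genes), and 2 lay higher without overlap (1.52% of all genes). Those 5 were Nfix, the Notch target Hes1 (0.34, SE 0.12), the nuclear receptor Rorb (0.38, SE 0.16), Otx1 (0.45, SE 0.20) and Lhx2 (0.30, SE 0.14). Hes1 had 0.33, 0.29, 0.28 and -0.11 in Crym KO mice, against -0.14, -0.06, -0.10 and -0.26 in Control mice. Without Control mouse 2 the median of this list was 0.07, the difference of Rorb was 0.20 and that of Lhx2 was 0.19, and without Control mouse 1 the median was 0.22. Among 19 secreted or surface factors that act on synapses, 16 differences were positive (median 0.16) and 2 were higher at an unadjusted p under 0.05, the matrix protein Tnc at 0.41 (SE 0.17) and the Wnt modulator Dkk3 at 0.24 (SE 0.07). For 16 genes of potassium, water and gap-junction transport the median difference was 0.12, and Kcnj10, an inwardly rectifying potassium channel, was at 0.25 (SE 0.11).

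Genes listed for the integrated stress response, which include Atf4 and chaperones of the endoplasmic reticulum, had a positive difference in 12 of 15 and a median of 0.09. At an unadjusted p under 0.05, 5 were higher (2.33% of all genes), and 4 lay higher without overlap (1.52% of all genes). Trib3, a pseudokinase induced by Atf4, had 0.42, 0.49, 0.22 and 0.16 in Crym KO mice, against -0.50, -0.72, -0.46 and -0.93 in Control mice, and so had opposite signs in all mice. Its difference of 0.98 (SE 0.24) rests on a level under 1 CPM, at 0.85 CPM in Crym KO IP and 0.44 CPM in Control IP for Trib3. Atf5 differed by 0.35 (SE 0.11), Atf4 by 0.17, Sdf2l1, a chaperone cofactor of the endoplasmic reticulum, by 0.22 and Ddit3 by 0.19. The list median was 0.15 without Crym KO mouse 3 and 0.06 without Crym KO mouse 1 and without Control mouse 2.

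Thyroid hormone handling was of interest because μ-crystallin binds the hormone. Of 19 genes, 15 had a positive difference (median 0.06), 2 were higher and 1, Crym itself, was lower at an unadjusted p under 0.05. Of all genes, 2.33% were higher and 2.28% lower at this p. Hr, a corepressor that is itself induced by thyroid hormone, had 0.34, 0.14, 0.11 and 0.26 in Crym KO mice, against -0.15, -0.00, -0.04 and -0.08 in Control mice. The difference for Hr was 0.28 (SE 0.07, adjusted p = 0.832 in limma), 0.15 in IP and -0.14 in Input. Slc7a5, an amino acid transporter that also carries thyroid hormone, had 0.36, 0.29, 0.34 and 0.26 in Crym KO mice, against 0.17, 0.05, 0.02 and 0.17 in Control mice. The enzyme Dio2, which activates the hormone in astrocytes, had a mean enrichment of 1.56 ± 0.04 in Crym KO and 1.42 ± 0.28 in Control mice, and the transporter Slco1c1 had 1.13 ± 0.08 in Crym KO and 1.04 ± 0.17 in Control mice (SD, n = 4 each). The receptor Thra had -0.28 ± 0.07 in Crym KO and -0.28 ± 0.08 in Control mice. Of 12 genes that thyroid hormone induces, 2 were higher at an unadjusted p under 0.05, Hr and Aldh1a1, a retinal dehydrogenase, at 0.26 (SE 0.12), with a list median of 0.06.

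GABA genes were listed because astrocytes take up and release this transmitter. Of 13 measured, 9 differences were positive (median 0.06). Slc6a11, the GABA transporter GAT3 of astrocytes, had 1.90, 2.17, 1.76 and 2.40 in Crym KO mice, against 2.04, 1.48, 1.70 and 1.65 in Control mice. The groups overlapped, and the difference of 0.34 (SE 0.14) for Slc6a11 was in Input (-0.37) and not in IP (-0.03). Maob, which degrades amines and takes part in making GABA from putrescine, had a difference of 0.06 (SE 0.09).

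Most genes of the interferon response and of antigen presentation were enriched by the pull-down. In Crym KO 14 of 17 and 8 of 12 were called (7.76% of all genes), and in Control mice 15 of 17 and 8 of 12 (7.18%). No member had an unadjusted p under 0.05 for the difference. Type I interferon response genes had list medians of 2.06, 2.28, 1.30 and 1.68 in Crym KO mice, against 2.38, 1.46, 1.88 and 1.52 in Control mice (17 genes, median difference 0.07). Their levels were lower in both fractions of Crym KO mice by nearly equal amounts, with median differences of -0.87 in IP and -0.93 in Input. For antigen presentation (12 genes) the median difference of enrichment was 0.01, with -1.04 in IP and -1.01 in Input. Ifit3, an interferon-induced protein, had a mean enrichment of 2.77 ± 0.46 in Crym KO and 2.58 ± 0.43 in Control mice (SD, n = 4 each).

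**Figure D5:**
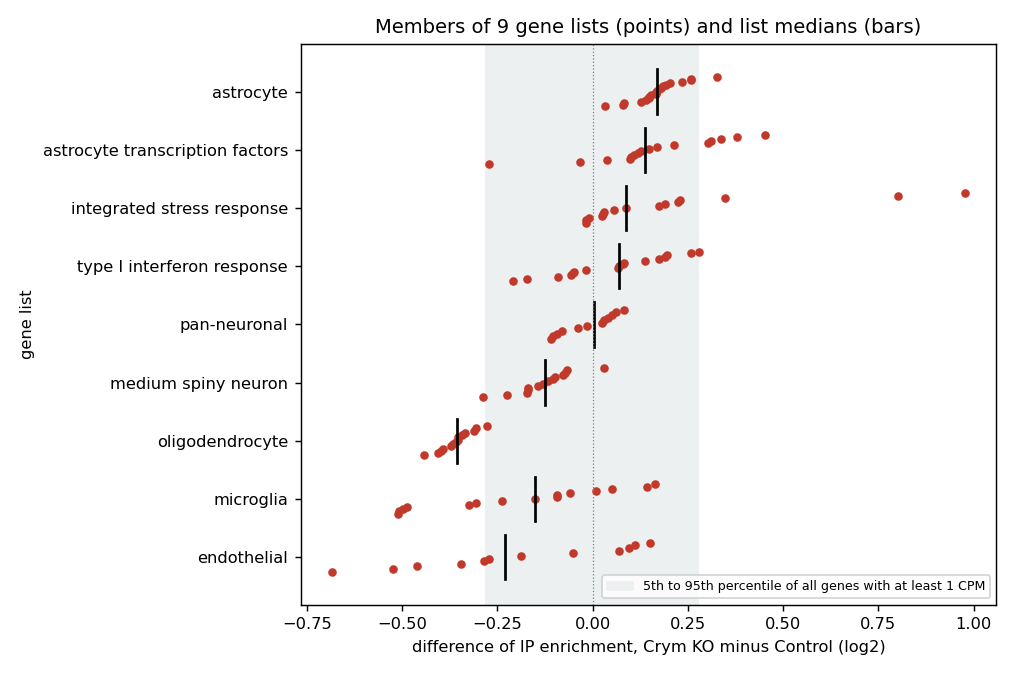
Difference of IP enrichment (Crym KO minus Control, log2) of each member (points) of 9 gene lists, with list medians as black bars and the 5th to 95th percentile of all genes with at least 1 CPM (-0.28 to 0.28) shaded. All 20 astrocyte points lie right of 0, at 0.03 to 0.33, and all 14 oligodendrocyte points left of 0, at -0.44 to -0.28.

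Gene sets that the study drew from other samples were also followed. Of 127 genes higher in Crym+ astrocytes in single-cell sequencing, 125 were measured. Of them, 102 were enriched in Crym KO (7.76% of all genes) and 99 in Control mice (7.18%). Of these 125, 112 (89.6%) had a positive difference (median 0.13), beside 51.7% of all genes and 72.0% of genes with a mean enrichment above 1 (median 0.09). Their list medians were 1.61, 1.66, 1.46 and 1.77 in Crym KO mice, against 1.63, 1.21, 1.56 and 1.63 in Control mice. The groups overlapped, and Control mouse 2 was the lowest of all mice. The part of that mouse in these differences was not tested. At an unadjusted p under 0.05, 11 of the 125 were higher and 3 lower (2.33% and 2.28% of all genes), and 6 of the 125 are also on the astrocyte marker list. Of 50 genes lower in Crym+ astrocytes, 38 had a negative difference (median -0.06), and 5 of the 50 are also on the oligodendrocyte list. At an unadjusted p under 0.05, 2 of the 50 were higher, Agt at 0.74 (SE 0.25) and Itih3 at 0.73 (SE 0.23). At this p, 1 was lower, Tspan2 at -0.40 (SE 0.17). Of 78 proteins that proximity labelling placed near μ-crystallin, 73 were measured, with a median difference of 0.02, 1 higher and 3 lower at an unadjusted p under 0.05, Crym among the lower.

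The class of a gene in the pull-down was mostly shared between genotypes. With a log2 ratio above 1 and an adjusted p under 0.05, 1603 genes (7.76%) were enriched in Crym KO and 1483 (7.18%) in Control mice, 1353 of them in both. With a ratio below -1, 4051 genes (19.6%) were depleted in Crym KO and 4110 (19.9%) in Control mice, 3703 of them in both. The 250 genes called enriched in Crym KO alone and the 130 called in Control alone are not thereby shown to differ, since no gene passed the test of the difference itself in limma. An enrichment above 1 was seen in all 8 mice for 729 genes and below -1 for 2365. Crossing of this line by whole genotypes was rare. At 1 CPM or more it was found for Paqr7, a progestin receptor (above 1 in all 4 Crym KO mice, mean 1.15, and under 1 in all 4 Control mice, mean 0.91), and in the other direction for Crym and for Spc25, a kinetochore gene (means 0.83 in Crym KO and 1.22 in Control mice). Below 1 CPM, Klri1, Actg-ps1 and 4921536K21Rik crossed upwards and Gm26648 downwards in Crym KO mice. The sign of the enrichment was opposite in all mice of the genotypes for 24 genes, 14 positive and 10 negative in Crym KO. Where 0 lies depends on the scaling of the libraries. The median enrichment of all genes was -0.02 in each genotype with TMM, -0.18 with upper quartile scaling and -0.21 with library size alone. Opposite signs close to 0, as for Axin2, Hr, Htr2c, Lmo7 and Trib3, thus depend on this centre. The median difference between genotypes stayed at 0.00 to 0.01 with these scalings.

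The extremes were taken by the mean of both genotypes. At the top stood Gbp10 and Gbp2, guanylate-binding proteins of the interferon response, the iron-siderophore protein Lcn2, the transglutaminase Tgm1 and Gfap (2.96 ± 0.41 in Crym KO and 2.72 ± 0.39 in Control mice; SD, n = 4 each). At the bottom stood the mitochondrial ribosomal RNAs mt-Rnr2 (-6.15 ± 0.32 in Crym KO and -6.05 ± 0.32 in Control mice) and mt-Rnr1, the noncoding RNA Rmrp, the mitochondrial gene mt-Nd6 and the microglial genes C1qb and Ctss. Of these named genes, Rmrp (-6.36 in Crym KO and -5.62 in Control mice) and Ctss (-5.91 in Crym KO and -5.40 in Control mice) had an unadjusted p under 0.05 for the difference. It was 0.76 (SE 0.42) for Lcn2 and 0.70 (SE 0.34) for mt-Nd6. Mitochondrially encoded genes as a list had medians of -4.99 to -4.40 in Crym KO mice and -4.96 to -4.22 in Control mice.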

How the data were processed

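Striatal RNA of 8 mice (4 Crym KO, 4 Control) was measured in 16 libraries, an IP and an Input library per mouse. The authors deposited 1 table of whole-number read counts for 48795 gene identifiers. Per the study's methods, ribosomal RNA was depleted, 69-base paired-end reads were sequenced in a single pool and aligned to GRCm38 (mm10) with STAR, and HTSeq counted uniquely placed reads; the submitters' processing notes name bcl2fastq 2.17. The methods name RefSeq genes while the table holds Ensembl identifiers, and whether counting used strand is not given in the sources used here. Symbols came from GENCODE M21 and matched 48435 identifiers; the other 360 held 0.0765% of counts. No column belonged to other samples.

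Counts were scaled with TMM in edgeR 4.0.16 and turned into log2 CPM with a prior count of 2, which pulls low genes towards 0. IP minus Input of a mouse was fitted in limma 3.58.1 (R 4.3.3) with 1 mean per genotype and a trended spread, over the 20645 genes kept by the expression filter of edgeR; 15298 identifiers held no count. The Benjamini-Hochberg adjustment of the two-sided p-values ran over all of them, with a threshold of 0.05. Enriched or depleted genes had a genotype mean above 1 or below -1 and an adjusted p under 0.05. Single values had an exact permutation test (70 arrangements, smallest p 0.0286). Labels gave the groups and mouse numbers. The fractions of a mouse share the animal code, and deviations from the group mean correlated within the mouse at 0.149 to 0.602. Crym KO and Control mice of equal number were different animals.

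Named were Crym, Rpl22 and its copies, Abca14, Nts, Senp7, Sgk1, Ddit4 and leading markers; the 10 positive and 10 negative differences with the smallest p at 1 CPM or more; the extremes of mean enrichment; up to 4 members per list; and genes whose mice cross 1 by genotype. Of these, the text describes a selection, and a few are not reported here. The members and the 38 gene lists were chosen with earlier results of these data known. Lists are described by counts and medians only. Alternatives were other scalings, prior counts and filters, limma-voom, edgeR, DESeq2 1.42.0, a replicate block, subsets of mice, a covariate of astrocyte markers and leaving out each mouse. The scripts were tested on simulated data.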

Additional observations from a re-analysis of the deposited data

Results flagged for a closer look

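In 14 of 298 groups of 4 mice examined (genes and list medians), 1 mouse lay far from the other 3, past the 95% critical value of the Dixon ratio of its gap to the whole range. Chance gives about 1 group in 20. Crym KO mouse 3 stood apart in Lmo7 (-0.064, the others -0.022 to -0.018), in Gm26648 (-0.83) and in the median of the mural (-0.71), ependymal (1.24) and lymphocyte (-0.40) lists. Crym KO mouse 4 stood apart in Hes1 (-0.11) and Trem2 (-3.60). Control mouse 2 stood apart in Fgfr3 (1.54), Maob (1.80) and the median of Rpl22 and its copies (2.08), low each time. Control mouse 4 stood apart in Abcb1a (-3.19, the highest Control value) and Mobp (-1.02, the lowest), Control mouse 3 in Tmem35a (0.14) and Control mouse 1 in the ependymal median (2.66).

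The enrichment of 7 named genes was positive in every mouse of 1 genotype and negative in every mouse of the other. The difference (Crym KO minus Control) was positive for Ptger4 (1.07), Trib3 (0.98), Axin2 (0.28) and Hr (0.28) and negative for Nts (-1.06), Htr2c (-0.42) and Lmo7 (-0.30). For Axin2, Hr, Htr2c, Lmo7 and Trib3 some values lay near the centre, whose place depends on the scaling. None of these 7 genes passed the adjusted threshold in limma, whereas Nts, Htr2c and Lmo7 passed in DESeq2.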

How the results depend on the processing

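The count of genes whose enrichment differed was 0 in limma, 1 with a prior count of 10 (Ighv1-50, an antibody gene with at most 8 counts in any Crym KO library, adjusted p = 0.0373), 11 with DESeq2 and a term per mouse (5 higher, 6 lower, of 14641 genes with an adjusted p) and 1 with the astrocyte marker covariate (Crym). It was 0 under all other alternatives, and 0 to 0 when each mouse was left out in turn, with lowest adjusted p-values of 0.0712 to 1.00. The difference for Crym was -1.19 with DESeq2 and -1.55 with the covariate, which both passed, and -1.33 to -1.07 without each mouse; adjusted over the 1513 genes with a mean enrichment above 1 its p was 0.0641. With each mouse left out, enriched genes numbered 1529 to 1768 in Crym KO and 1345 to 1599 in Control, and depleted genes 4069 to 4155 in Crym KO and 4100 to 4218 in Control. A minimum mean of 1 CPM over all libraries left 978 genes enriched in Control, and 1591 depleted in Crym KO and 1611 in Control, because fewer genes were tested. Of the named genes, only Gm9457 turned its direction, to -0.077 in mice 3 and 4 alone. List medians were rerun only for the astrocyte, astrocyte transcription factor, integrated stress response, medium spiny neuron, oligodendrocyte, microglia, endothelial and ependymal lists. Of these, the ependymal one (-0.07) turned to 0.18 without Crym KO mouse 3 or Control mouse 1. It was 0.05 in mice 3 and 4 alone. The astrocyte one (0.17) turned to -0.02 with its own covariate. The cause was not tested for Gm9457 and the ependymal list.

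Across genotypes the mouse numbers mark different animals, and deviations of same-numbered mice correlated at r = -0.04 to 0.11, so that the number was not taken as a pairing, although mice of equal number were of the same sex by their counts. With the number as a block, 0 genes passed (lowest adjusted p = 0.165, 1015 genes at an unadjusted p under 0.05) and the difference for Crym was -1.18 with an adjusted p of 0.302. Without a term for the mouse, limma-voom called 0 genes (704 unadjusted) and gave Crym an adjusted p of 1.00.

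Depth limited low genes most. At under 1 CPM, as for Trib3, the enrichment depends on the prior count, and a small difference could not be told from 0 with 4 mice per genotype.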
